A study of Mus musculus with 18 samples.

Results

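The 6 miRNA entries mmu-mir-103, mmu-mir-107, mmu-mir-26a, mmu-mir-26b, mmu-mir-128 and mmu-mir-140 come from hairpins that lie inside introns of protein-coding genes and have no miRNA partner on the same transcript that is known to help their processing. They were chosen by name from 1006 miRNA entries in the deposited table, by a rule that uses no read counts but with earlier results of these data known. All 6 passed the filter on low counts, as did 273 of the 1006 entries. Small RNA was measured in 18 libraries of Baf3 cells, an interleukin-3 dependent line of mouse pro-B cells. All cells carried fluorescent reporters for altered forms of miR-15a and miR-16 and were transduced with Cas9 and a guide RNA, selected with puromycin and otherwise untreated. The control genotype was Rag1_KO, a gene with no role in miRNA production per the series' description. The knockouts were Safb1 KO, Safb2 KO in the same cells, called SAFB here, and Erh KO, called ERH here. Each of the 3 genotypes had 2 guides, and each guide gave 1 polyclonal population with 3 libraries. The batch number of a library is the last number of its title. The n = 6 libraries per genotype thus stood for 2 independently edited populations. Knockout cells were sorted for loss of miR-15a reporter repression and regrown. How control cells were sorted is not given in the sources used here. Tests over libraries pool the spread within and between these populations and take each library as a separate unit. Their p-values can therefore understate the spread between populations. An exact permutation test over 2 against 2 populations could not go below p = 0.333.

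A primary miRNA transcript is cut at the base of its hairpin by the Microprocessor, which holds the nuclease Drosha and its partner DGCR8. Some poor hairpins, of which mir-15a is the best known, are cut well only when a better hairpin stands beside them on the same transcript, a relation called cluster assistance. SAFB proteins, which are RNA and chromatin binding scaffold factors, and ERH, a small conserved dimer that binds DGCR8, take part in this assistance. A solitary intronic hairpin can be transcribed with its host gene and has no neighbour to assist it. The 6 entries were chosen for this reason, as a comparison set for assisted hairpins.

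The main mature strand of each is shown because the seeds and the near-identity of the paralogs decide how the counts can be read. Sequences are those of RefSeq for build GRCm38.p6, 5′ to 3′, with the seed (bases 2 to 8) in capitals.
mmu-miR-103-3p: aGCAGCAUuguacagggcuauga
mmu-miR-107-3p: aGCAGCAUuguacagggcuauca
mmu-miR-26a-5p: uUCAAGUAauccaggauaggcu
mmu-miR-26b-5p: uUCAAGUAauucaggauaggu
mmu-miR-128-3p: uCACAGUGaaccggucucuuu
mmu-miR-140-3p: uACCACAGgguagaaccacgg
mmu-miR-15a-5p: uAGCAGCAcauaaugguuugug
The 6 miRNAs carry 4 seeds, since mmu-mir-103 and mmu-mir-107 share one and mmu-mir-26a and mmu-mir-26b share another. Counted from the 5′ end, miR-107-3p differs from miR-103-3p by the single substitution G22C, and the first 21 bases are the same. A read that ends before base 22 fits both, and how such reads were assigned is not given in the sources used here. miR-26b-5p differs from miR-26a-5p by C11U and C21U, so these 2 can be told apart from base 11 on. The seed of miR-103 and miR-107 holds the letters GCAGCA, which are also in the seed of miR-15a one base further along, and this places them in 1 group of miRNAs with miR-15.

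The entries mmu-mir-103, mmu-mir-26a and mmu-mir-128 each pool 2 gene copies, and both arms of a hairpin share an entry. By the GENCODE M21 annotation of GRCm38, whose positions may come from a different build than the authors used, the 9 genes lie on the strand of their hosts. Mir103-1 (chr11:35782396-35782481), Mir103-2 (chr2:131288052-131288137) and Mir107 (chr19:34820687-34820773, minus strand) are in introns of Pank3, Pank2 and Pank1, which encode pantothenate kinases of coenzyme A synthesis. Mir26a-1 (chr9:119031796-119031885) and Mir26b (chr1:74394310-74394394) are in introns of Ctdspl and Ctdsp1, which encode small phosphatases of the RNA polymerase C-terminal domain. Mir26a-2 (chr10:126995530-126995613) lies in an intron of 1 coding transcript of the related Ctdsp2, and its last base, 126995613, is the first base of an exon of 2 other transcripts. Mir128-1 (chr1:128202361-128202430) is in an intron of R3hdm1 and Mir128-2 (chr9:112118636-112118711, minus strand) in an intron of Arpp21, both genes for RNA-binding proteins. Mir140 (chr8:107551244-107551313) is intronic in 3 coding transcripts of the ubiquitin ligase gene Wwp2 and exonic in 1 retained-intron transcript.

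The nearest annotated miRNA gene on the same strand was at least 165.5 kb away for 8 of the 9 genes. The exception was Mir26a-2, with Mir546 at 2.8 kb, and the entry mir-546 had at most 2 counts in any library. The label "solitary" thus held for 8 of 9 genes at the 10 kb distance used here.

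The hairpins of the paralogs are shown because their ratios are the clearest result below. Mature arms are in capitals.
Mir103-1: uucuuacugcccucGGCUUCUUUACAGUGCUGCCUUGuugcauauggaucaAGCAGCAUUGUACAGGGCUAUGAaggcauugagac
Mir103-2: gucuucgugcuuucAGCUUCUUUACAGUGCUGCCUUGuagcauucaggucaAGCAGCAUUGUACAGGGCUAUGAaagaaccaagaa
Mir107: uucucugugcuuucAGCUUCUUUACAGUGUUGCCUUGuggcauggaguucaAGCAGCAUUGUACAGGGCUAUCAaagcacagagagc
Mir26a-1: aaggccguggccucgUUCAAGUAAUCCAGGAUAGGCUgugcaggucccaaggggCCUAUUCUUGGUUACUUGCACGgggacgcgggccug
Mir26a-2: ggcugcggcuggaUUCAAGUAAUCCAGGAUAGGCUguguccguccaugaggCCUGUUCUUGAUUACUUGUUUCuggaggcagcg
Mir26b: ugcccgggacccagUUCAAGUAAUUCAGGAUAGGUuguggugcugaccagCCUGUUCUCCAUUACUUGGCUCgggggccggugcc
Folded with RNAfold, the 9 hairpins had 73.7% to 85.7% of their bases paired, against a median of 69.0% over 1005 mouse hairpins. Mir140 was the most paired, and 1.09% of all hairpins exceeded it. Predicted free energy per base ran from -0.37 kcal/mol for Mir103-2 to -0.56 kcal/mol for Mir140, against a median of -0.41 kcal/mol. Mir103-2 was thus less stable per base than most mouse hairpins, and 65.4% of them were more stable. For comparison, Mir425 had 65.9% of its bases paired at -0.37 kcal/mol per base, close to Mir103-2. Mir15b had a paired share within the range of the 9, at -0.30 kcal/mol per base, where 88.6% of hairpins were more stable. The letters UGU between the mature arms, sometimes recognised by DGCR8, were found in Mir26a-2 and Mir26b among the 8 hairpins with both arms annotated, and in 31.5% of 644 mouse hairpins scored the same way. These are matches of letters and predicted folds, not measurements.

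Library totals ran from 2699323 to 4470073 miRNA counts, and the spike-in RNAs took 0.165% to 0.366% of all counts. The haematopoietic miRNA mir-142a was at 109283 to 156599 CPM in the 18 libraries, where CPM is a count scaled to library size, while the erythroid mir-451a and the muscle mir-206 reached at most 6 and 0 counts. Among markers of other cells, muscle mir-1a reached 22 counts and liver mir-122 reached 112, and mir-122 was called higher in ERH (1.33). The endothelial marker mir-126a was abundant, at 4072 to 4586 CPM in control, and was called lower in SAFB (-0.31) and in ERH (-0.45). Of 2 mesenchymal miRNAs tested, mir-143 was called higher in SAFB (0.56) and 0 were called in ERH. The neuron marker mir-9 had log2 fold changes of 2.87 in SAFB and 4.85 in ERH. The other neuron marker, mir-124, was at 0 CPM in control, reached at most 6 counts in any library and did not pass the filter. Of 4 epithelial miRNAs tested, 2 were called higher in SAFB and 0 in ERH. The 5 epithelial entries summed to 140.4 to 193.6 CPM per control library, to 182.7 to 211.7 CPM per SAFB library and to 143.4 to 175.2 CPM per ERH library. Among 5 haematopoietic miRNAs tested, SAFB cells had 2 called higher and 1 called lower, while ERH cells had 1 and 3. mir-150, a marker of more mature lymphocytes, reached at most 95 counts and stood at a log2 fold change of -1.96 in SAFB and -1.06 in ERH. mir-181a stood at 0.58 and 0.40, mir-155 at -0.12 (not called) and -0.38, and mir-142a at -0.062 (not called) and -0.23. mir-223, typical of myeloid cells, lay at 7511 to 13200 CPM for control, at 15010 to 21058 CPM for SAFB and at 7452 to 13076 CPM for ERH. mir-223 thus differed between genotypes in the same directions as mmu-mir-26a, mmu-mir-140 and mmu-mir-103 in SAFB and in ERH against SAFB. The epithelial mir-200a (0.50 and -0.50) and mir-200c (0.51 and -0.55) did so too. The epithelial mir-200b (0.58 and -0.11) and mir-141 (-0.036 and -0.11) were not called in either comparison. The part of these miRNAs in those results was not tested. The targeted genes cannot be read in small RNA. The miRNA behind the sort, mir-15a, fell by 3.61 on the log2 scale in SAFB and by 2.59 in ERH, which the sort itself favours. mir-425, at a log2 fold change of -4.69 in SAFB and -3.72 in ERH, fell too. Another set moved the other way: mir-125a, mir-10a, mir-148a, mir-196b, mir-218 and mir-9, known from earlier results of these data, summed to 75.4 to 169.8 CPM per control library, to 865 to 1441 CPM per SAFB library and to 2380 to 5020 CPM per ERH library. The part of whatever moved those 6 miRNAs in the results below was not tested.

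The 6 intronic miRNAs were abundant in control cells. By count, mmu-mir-103 ranked 16th of the 1006 entries, mmu-mir-26b 19th, mmu-mir-26a 28th, mmu-mir-140 42nd, mmu-mir-128 47th and mmu-mir-107 55th. Their counts per library ran from 3388 for mmu-mir-107 to 61538 for mmu-mir-103, so counting error was small beside the spread of replicates. Together they made up 3.00% ± 0.127 of the miRNA counts of a control library, 3.49% ± 0.161 for SAFB and 3.60% ± 0.171 for ERH (SD, n = 6). On the TMM scale used for the tests the order differed, with control libraries summing to 30872 to 34711 CPM, SAFB libraries to 33464 to 39566 CPM and ERH libraries to 28603 to 34253 CPM.

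**Figure D1:**
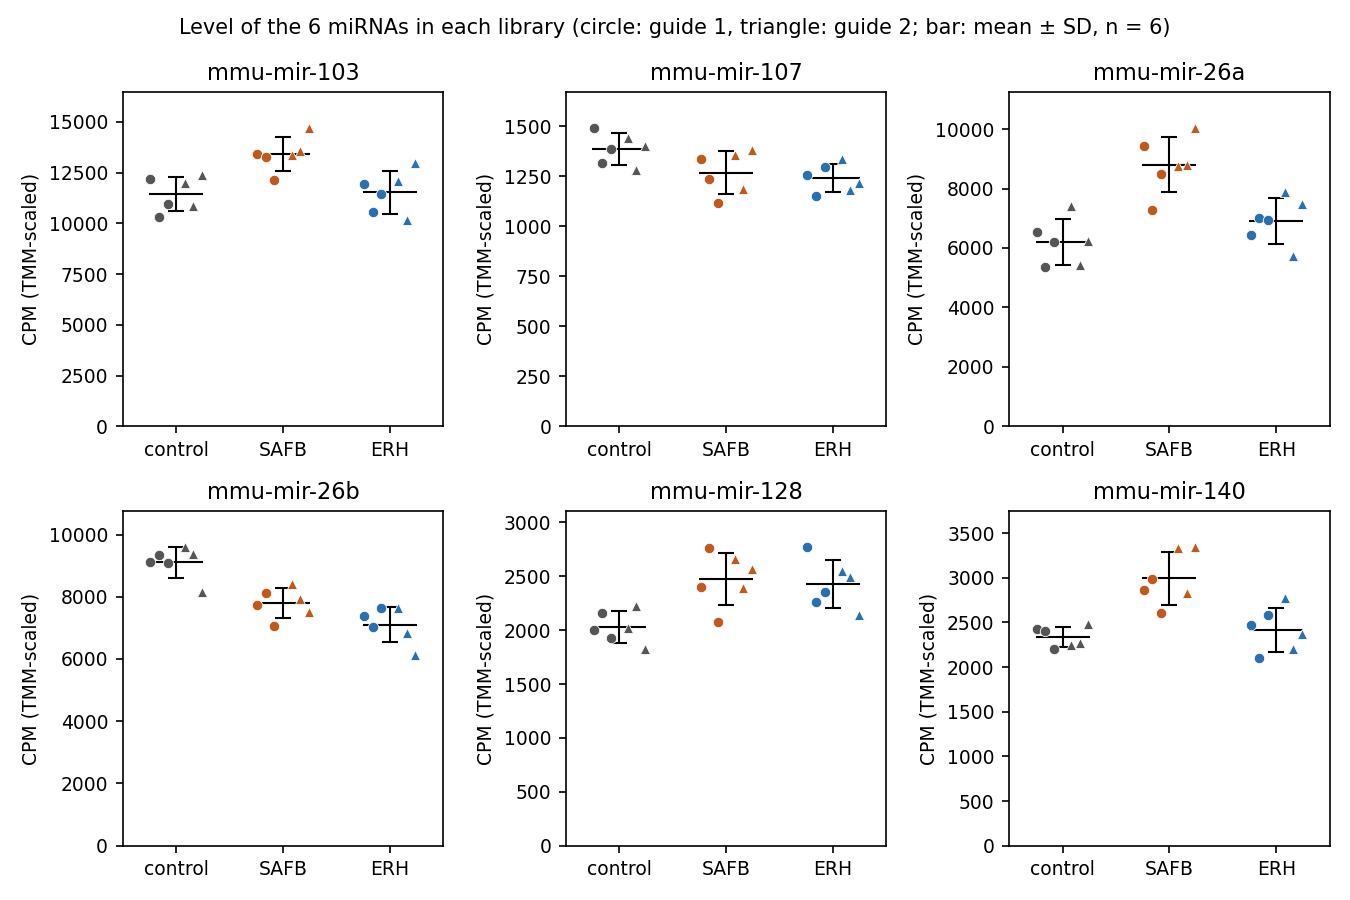
Level of each of the 6 miRNAs in CPM (vertical axis, TMM-scaled, from 0) in the 6 libraries of control, SAFB and ERH cells; circles are guide 1, triangles guide 2, bars the mean ± SD of 6 libraries. mmu-mir-140 in SAFB lay wholly above control (2605 to 3344 against 2206 to 2487 CPM) and mmu-mir-26b in ERH wholly below (6131 to 7637 against 8158 to 9597 CPM), while the other panels overlap with control.

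In SAFB cells 4 of the 6 miRNAs rose, 1 fell and 1 did not pass the test, and the changes were small with TMM scaling. The test was the quasi-likelihood test of edgeR with TMM scaling and Benjamini-Hochberg adjustment over 273 miRNAs, with a call at an adjusted p under 0.05. In this comparison 56% of all tested miRNAs were called, 30.8% as higher and 25.3% as lower, so that being called was no mark of these 6. The median size of the log2 change was 0.26 for the 6, against 0.51 over all 273 and 0.33 over the 153 with on average at least 100 counts. The highest of the 6 was mmu-mir-26a at 1.42-fold. Leaving out the SAFB population of guide 1 raised the log2 fold changes to 0.75 for mmu-mir-26a, 0.61 for mmu-mir-140, 0.50 for mmu-mir-128 and 0.45 for mmu-mir-103, while the median of all tested miRNAs moved from 0.0083 to 0.19. With spike-in scaling none of the 6 was called by edgeR in SAFB or ERH. Standard errors were then 0.22 to 0.23, against 0.061 to 0.088 with TMM, so a lost call need not mean a smaller change. In SAFB mmu-mir-103 went to -0.038, while mmu-mir-26b went from -0.22 to -0.49 (edgeR adjusted p = 0.0697). In ERH mmu-mir-26b went to -0.076, while mmu-mir-128 went from 0.26 to 0.54 (edgeR adjusted p = 0.0540).

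mmu-mir-26a, which pools the copies in Ctdspl and Ctdsp2 and is known for restraint of cell growth, rose most. Its level was 5357, 6221 and 7428 CPM in control (lowest, median, highest library) and 7285, 8774 and 10041 CPM in SAFB. The lowest SAFB library and the highest control library just overlapped. The log2 fold change was 0.51 (SE 0.088, edgeR adjusted p = 3.7e-05), and it was above 0 in all 3 batches, from 0.38 to 0.57.

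mmu-mir-140, known best from cartilage, where it shares expression with its host Wwp2, was at 2206, 2336 and 2487 CPM in control and at 2605, 2922 and 3344 CPM in SAFB. Every SAFB library was above every control library. That made it 1 of 6 with no overlap in the higher direction, where 19.4% of all tested miRNAs had none. It rose by a log2 fold change of 0.36 (SE 0.074, edgeR adjusted p = 0.00029). None of the 6 was without overlap in the lower direction, where the share of all tested miRNAs was 17.2%.

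mmu-mir-128, a miRNA abundant in neurons and also found in blood cells, rose by 0.29 on the log2 scale (SE 0.076, edgeR adjusted p = 0.0024). Its control libraries lay at 1822, 2012 and 2224 CPM and its SAFB libraries at 2079, 2484 and 2760 CPM, so the groups overlapped at their edges. mmu-mir-103, from the Pank3 and Pank2 introns and the most abundant of the 6, went from 10304, 11474 and 12377 CPM to 12114, 13392 and 14707 CPM. This rise of 0.23 (SE 0.065, edgeR adjusted p = 0.0044) left the lowest SAFB library inside the control range.

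The single-copy paralogs went the other way or did not pass. mmu-mir-26b, in Ctdsp1, fell by 0.22 on the log2 scale (SE 0.061, edgeR adjusted p = 0.0032), with control libraries at 8158, 9221 and 9597 CPM and SAFB libraries at 7049, 7832 and 8414 CPM. The control library at 8158 CPM, from guide 2 in batch 3, was the only one inside the SAFB range. The call was lost when either population of either genotype was left out (log2 fold changes -0.18 to -0.020), when the control library of guide 1 in batch 2 (-0.15), the control library of guide 2 in batch 1 (-0.15) or the SAFB library of guide 1 in batch 3 (-0.14) was left out, and with counts summed per population (-0.18, edgeR adjusted p = 0.0516). mmu-mir-107, in Pank1, was at 1282, 1394 and 1493 CPM in control and 1117, 1287 and 1384 CPM in SAFB. Its log2 fold change of -0.13 (95% interval -0.27 to 0.011, edgeR adjusted p = 0.108) did not pass the test. Leaving out single libraries gave -0.12 to -0.024 for mmu-mir-107 and -0.19 to -0.14 for mmu-mir-26b. All of these values lay above those of the full fit. Each refit filtered and scaled the libraries anew, and the part of this shift in the lost calls was not tested.

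In ERH cells 1 of the 6 rose, 2 fell and 3 did not pass, against 53.8% of all tested miRNAs called, 26.4% higher and 27.5% lower. The median size of the log2 change was 0.16 for the 6, 0.43 over all 273 and 0.37 over those with a mean of at least 100 counts. mmu-mir-26b fell by 0.36 on the log2 scale (SE 0.061, edgeR adjusted p = 2.6e-05) with TMM scaling. The call was lost with total counts (-0.056, adjusted p = 0.336) and with spike-ins (-0.076, adjusted p = 0.884). On the TMM scale its ERH libraries, at 6131, 7201 and 7637 CPM, all lay below the control libraries, at 8158, 9221 and 9597 CPM. It was 1 of 6 with no overlap in the lower direction, where 17.9% of all tested miRNAs had none, and 0 of 6 had none in the higher direction, where the share was 19.4%.

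mmu-mir-128 was the 1 that rose in ERH, by 0.26 (SE 0.076, edgeR adjusted p = 0.0055). The ERH libraries were at 2138, 2422 and 2771 CPM and the control libraries at 1822, 2012 and 2224 CPM, an overlap of the edges only. The rise ran from 0.12 in batch 2 to 0.40 in batch 1. mmu-mir-107 fell by 0.16 (SE 0.067), and at an edgeR adjusted p of 0.0451 its call was the weakest of the 6. It was at 1151, 1236 and 1335 CPM in ERH against 1282, 1394 and 1493 CPM in control, and the ranges overlapped. The call was lost without any single one of the 12 control and ERH libraries (log2 fold changes -0.15 to -0.10, edgeR adjusted p 0.0997 to 0.280). All 12 values lay above the -0.16 of the full fit. Those of mmu-mir-26b, at -0.34 to -0.27, likewise lay above its -0.36. Each refit filtered and scaled the libraries anew, and the part of this common shift in the lost calls was not tested. The mmu-mir-107 call was also lost without any 1 population (-0.15 to -0.098). It was lost in 8 of the 9 other alternatives, DESeq2 among them (-0.089, adjusted p = 0.248). The sign of mmu-mir-107 turned under total-count (0.14) and spike-in (0.13) scaling.

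The other 3 did not pass in ERH with TMM scaling, and whether they did depended on the fit. mmu-mir-103 stood at 10166, 11672 and 12993 CPM in ERH against 10304, 11474 and 12377 CPM in control, a log2 difference of 0.010 with a 95% interval from -0.12 to 0.14. mmu-mir-140 stood at 2102, 2421 and 2777 CPM in ERH against 2206, 2336 and 2487 CPM in control, a difference of 0.047 with an interval from -0.11 to 0.20. Its batches differed in sign, from -0.12 to 0.16. Leaving out single libraries gave 0.057 to 0.12 for mmu-mir-140 and 0.021 to 0.086 for mmu-mir-103. mmu-mir-26a stood at 5725, 6970 and 7890 CPM in ERH against 5357, 6221 and 7428 CPM in control, a difference of 0.16 with an interval from -0.026 to 0.34. mmu-mir-26a was called higher by 6 of the 9 other alternatives, with log2 fold changes up to 0.46 (total counts), and without the control library of guide 2 in batch 1 (0.26) or the ERH library of guide 2 in batch 2 (0.24). mmu-mir-140 was called higher with total counts (0.35), among miRNAs with at least 100 counts on average (0.18) and in a fit of control and ERH alone (0.17). mmu-mir-103 was called higher with total counts (0.32).

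**Figure D2:**
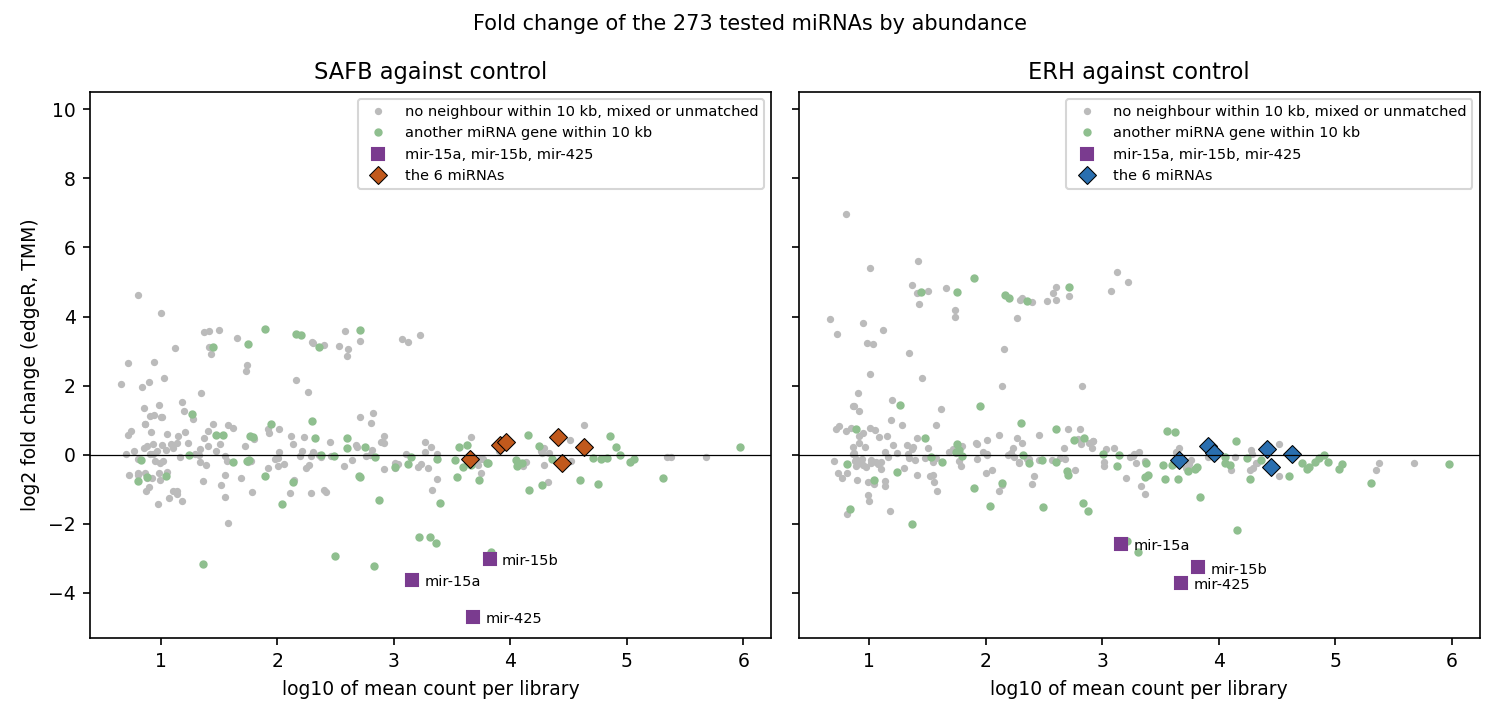
Log2 fold change (vertical axis, edgeR with TMM) against log10 of the mean count per library (horizontal axis) for the 273 tested miRNAs in SAFB and ERH cells; diamonds are the 6 intronic miRNAs, squares mir-15a, mir-15b and mir-425, green points miRNAs with another miRNA gene within 10 kb. The 6 lie between -0.22 and 0.51 in SAFB and between -0.36 and 0.26 in ERH, while the squares lie at -2.59 or below.

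The difference between the knockouts was tested directly with TMM scaling, in ERH against SAFB, where 39.6% of all tested miRNAs were called, 23.8% higher and 15.8% lower. mmu-mir-26a was lower in ERH than in SAFB by 0.35 on the log2 scale (log2 fold change -0.35, SE 0.088, edgeR adjusted p = 0.0027), mmu-mir-140 by 0.31 (-0.31, SE 0.074, adjusted p = 0.0018) and mmu-mir-103 by 0.22 (-0.22, SE 0.065, adjusted p = 0.0093). On the TMM scale all 3 were lower in each of the 3 batches. mmu-mir-128 (-0.029), mmu-mir-107 (-0.034) and mmu-mir-26b (-0.13, adjusted p = 0.0889) did not pass. Leaving out single libraries gave -0.090 to -0.0012 for mmu-mir-128 and -0.085 to -0.0025 for mmu-mir-107. None of the 3 calls held with total counts. There mmu-mir-26a (-0.087, adjusted p = 0.424), mmu-mir-140 (-0.045, adjusted p = 0.613) and mmu-mir-103 (0.047, adjusted p = 0.586) were not called, while mmu-mir-107 (0.23, adjusted p = 0.0046), mmu-mir-128 (0.24, adjusted p = 0.0080) and mmu-mir-26b (0.13, adjusted p = 0.0307) were called higher in ERH. With TMM, mmu-mir-26b was called lower in ERH without the SAFB population of guide 1 (-0.24), and without any 1 of 4 libraries, which were SAFB guide 1 batch 3 (-0.17), SAFB guide 2 batch 2 (-0.16), ERH guide 1 batch 3 (-0.17) and ERH guide 2 batch 1 (-0.16). The call of mmu-mir-103 was lost without the guide 2 population of SAFB (-0.19, adjusted p = 0.0633) or the guide 1 population of ERH (-0.19, adjusted p = 0.0942), and among miRNAs averaging at least 100 counts (-0.096, adjusted p = 0.253). The 6 raised miRNAs named above were higher in ERH than in SAFB, the opposite direction to these 3, and their part in it was not tested.

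On the TMM scale the independently edited populations of a genotype were close to each other for all 6 miRNAs. Between guides, 0% of 273 miRNAs were called in control, 0% in SAFB and 0.366% in ERH by edgeR, with 7, 10 and 18 at an unadjusted p under 0.05, and none of those were among the 6. The widest guide differences of the 6 were 0.075, 0.17 and 0.098 on the log2 scale. Setting each SAFB population against each control population gave 4 comparisons that reuse the same populations and are therefore not independent. In these mmu-mir-26a ran from 0.40 to 0.61, mmu-mir-140 from 0.27 to 0.44 and mmu-mir-107 from -0.18 to -0.071. The ranges were 0.14 to 0.32 for mmu-mir-103, 0.25 to 0.33 for mmu-mir-128 and -0.27 to -0.18 for mmu-mir-26b. In a fit without the SAFB population of guide 1 mmu-mir-107 instead stood at 0.094, where the median of all tested miRNAs was 0.19. For ERH the 4 comparisons gave -0.42 to -0.30 for mmu-mir-26b, 0.24 to 0.28 for mmu-mir-128, -0.18 to -0.14 for mmu-mir-107 and -0.054 to 0.075 for mmu-mir-103. They gave 0.094 to 0.22 for mmu-mir-26a and 0.025 to 0.070 for mmu-mir-140.

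A ratio of paralogs taken inside each library does not depend on how libraries were scaled. In both paralog pairs the miRNA with 2 gene copies gained on the one with 1 copy in both knockouts. The ratio of mmu-mir-103 to mmu-mir-107 counts had a lowest, median and highest value of 7.83, 8.23 and 8.83 in control, 9.85, 10.7 and 11.4 in SAFB, and 8.59, 9.11 and 10.7 in ERH libraries. Every SAFB library was above every control library, and the ERH libraries overlapped with both. On the log2 scale the SAFB ratio exceeded control by 0.36 (exact two-sided permutation test, p = 0.0022, 0.0043 after adjustment over 6 ratio tests). The ERH ratio exceeded control by 0.17 (exact permutation test, p = 0.0065, adjusted 0.0097) and was below SAFB (log2 difference -0.19, exact permutation test, p = 0.0108, adjusted 0.013). The ERH excess did not pass without the control population of guide 1 (0.12, exact permutation test, p = 0.107), nor did the difference from SAFB without the SAFB population of guide 1 (-0.19, exact permutation test, p = 0.0595). Since reads of miR-103-3p and miR-107-3p differ only at base 22, this ratio also carries whatever rule assigned shorter reads.

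The ratio of mmu-mir-26a to mmu-mir-26b moved further and is free of that limit, because these differ from base 11 on. It was 0.574, 0.701 and 0.774 in control, 0.897, 1.16 and 1.34 in SAFB, and 0.838, 0.951 and 1.22 in ERH libraries. Neither knockout overlapped with control. In control cells mmu-mir-26b had the higher count in all 6 libraries, with a mean log2 ratio of -0.56 ± 0.19 (SD, n = 6), while SAFB cells had a mean of 0.17 ± 0.20 and ERH cells one of -0.044 ± 0.20. The log2 ratio rose by 0.73 in SAFB and by 0.52 in ERH (exact two-sided permutation tests, p = 0.0022 for each, adjusted 0.0043). That p is the smallest that 924 arrangements can give. Within batches the rise was 0.60, 0.79 and 0.81 in SAFB and 0.35, 0.66 and 0.54 in ERH. The knockouts did not pass a test against each other (log2 difference -0.21, exact permutation test, p = 0.0974).

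**Figure D3:**
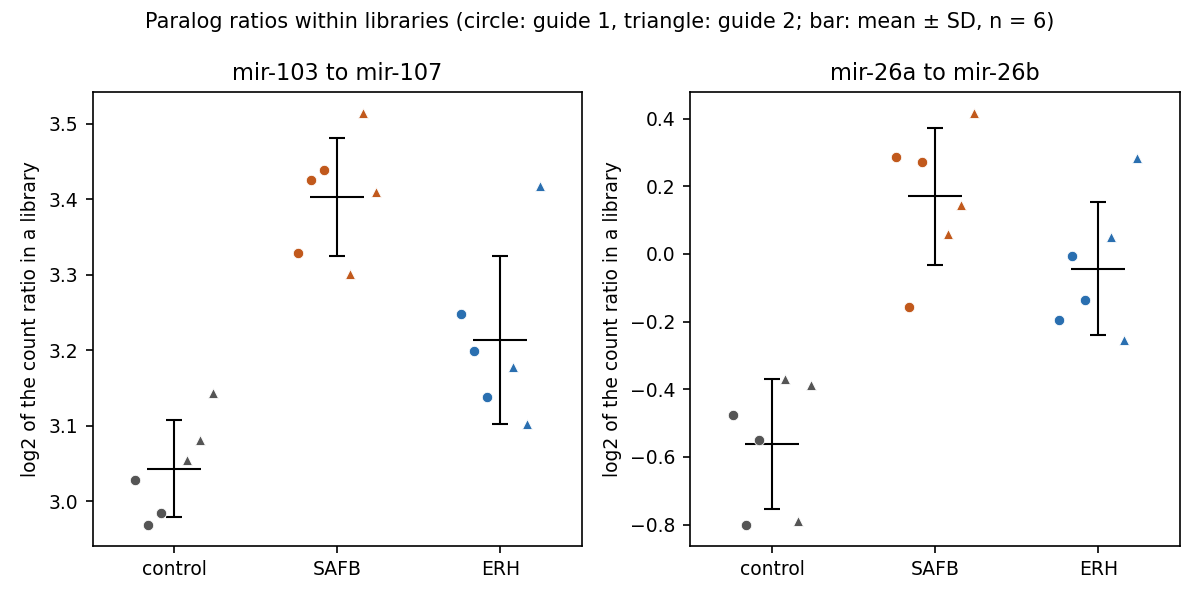
Log2 ratio of paralog counts within each library (vertical axis) for mmu-mir-103 to mmu-mir-107 (left) and mmu-mir-26a to mmu-mir-26b (right), in the 6 libraries of each genotype; circles are guide 1, triangles guide 2, bars the mean ± SD of 6 libraries. In the left panel SAFB lies wholly above control, and in the right panel SAFB and ERH both do.

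How libraries are scaled against each other decided the sign of several of these small changes. The median log2 fold change of all 273 tested miRNAs in SAFB was 0.0083 with TMM, 0.051 with DESeq2's size factors, 0.043 with total counts and -0.23 with the spike-ins. In ERH these medians were -0.061, 0.0055, 0.24 and 0.23. In ERH against SAFB they were 0.042, 0.072, 0.31 and 0.57. A scaling shifts all miRNAs by nearly the same amount, so the distance of a miRNA from the median of all tested miRNAs hardly changes with it by construction. These distances describe where the 6 stood among the other miRNAs and do not test their direction. In SAFB, mmu-mir-26a stood 0.49 to 0.51 above that median, mmu-mir-140 0.33 to 0.35, mmu-mir-128 0.25 to 0.29 and mmu-mir-103 0.19 to 0.23, while mmu-mir-26b had a distance of -0.26 to -0.23 and mmu-mir-107 of -0.15 to -0.13. In ERH the distances were 0.31 to 0.33 for mmu-mir-128, 0.22 to 0.23 for mmu-mir-26a, 0.11 for mmu-mir-140, 0.056 to 0.079 for mmu-mir-103, -0.10 to -0.094 for mmu-mir-107 and -0.30 to -0.29 for mmu-mir-26b.

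Without that reference point, the log2 fold change of mmu-mir-103 in SAFB ran from -0.038 (spike-ins) to 0.27, and that of mmu-mir-107 in ERH from -0.16 to 0.14. With total counts, 4 of the 6 were called higher in ERH by edgeR, and 0 lower: mmu-mir-103 (0.32), mmu-mir-26a (0.46), mmu-mir-128 (0.56) and mmu-mir-140 (0.35). With total counts all tested miRNAs split as 108 higher and 33 lower in ERH, against 72 and 75 with TMM. With the spike-ins none of the 6 was called in any comparison by edgeR, and mmu-mir-26b counts per spike-in count came to 3.64 ± 0.971 for control, 2.59 ± 0.352 for SAFB and 3.45 ± 1.00 for ERH (SD, n = 6). The direction of ERH against SAFB turned to higher under spike-in scaling for all 6, with 0.19 for mmu-mir-26a, 0.24 for mmu-mir-140 and 0.32 for mmu-mir-103, with distances of these 3 from the median of -0.40 to -0.38, -0.35 to -0.33 and -0.26 to -0.25.

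**Figure D4:**
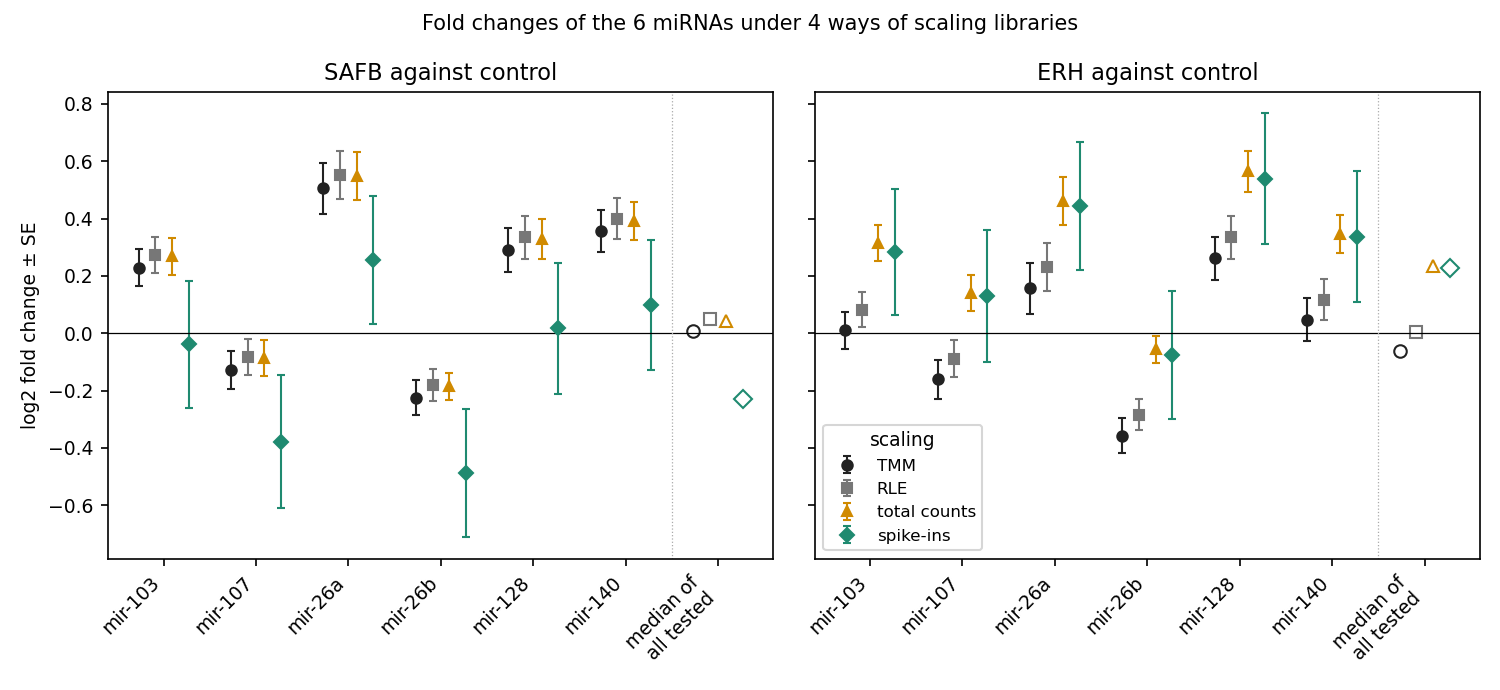
Log2 fold change ± SE (vertical axis) of the 6 miRNAs in SAFB (left) and ERH (right) against control, with libraries scaled by TMM, DESeq2's size factors (RLE), total counts or spike-ins; open symbols at the right of each panel are the median of all 273 tested miRNAs. The filled symbols of 1 scaling shift together with the open symbol, from 0.0083 (TMM) to -0.23 (spike-ins) in SAFB and from -0.061 (TMM) to 0.24 (total counts) in ERH.

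The miRNAs that share seed letters with mmu-mir-103 and mmu-mir-107 were set beside the pair, without a test of a difference. These relatives from the miR-15 group, which are known to bind overlapping sets of targets, were all tested, 7 in number and each with a mean of at least 100 counts. In SAFB 1 was called higher and 5 lower, beside 30.8% and 25.3% of all tested miRNAs, and in ERH 0 higher and 6 lower, beside 26.4% and 27.5%. Among the 153 miRNAs with such counts, 47 were called higher and 55 lower in SAFB, and 41 and 64 in ERH. mir-15a fell by 3.61 and 2.59 on the log2 scale in SAFB and ERH, mir-15b by 3.02 and 3.26, mir-195a by 0.66 and 0.69, mir-497a by 0.28 and 0.39, and mir-503 by 0.25 and 0.36. mir-15a and mir-15b were called under all 4 scalings in both knockouts. In ERH mir-497a (-0.085) and mir-503 (-0.059) were not called with total counts, nor with spike-ins, and mir-195a was not called with spike-ins (-0.39). In SAFB mir-497a and mir-503 were not called with spike-ins (-0.54 and -0.52). mir-16, the most abundant relative and the assisting neighbour of mir-15a, was called higher in SAFB (0.21) and lower in ERH (-0.27), and its sign turned under spike-in scaling in SAFB (-0.057) and under total-count scaling in ERH (0.028). The ERH call of mir-16 was also lost with spike-ins (-0.0016). mir-322 had a log2 fold change of -0.13 in SAFB and -0.16 in ERH and did not pass, values close to those of mmu-mir-107 (-0.13 and -0.16). mir-27a and mir-27b, whose seed UCACAGU overlaps that of miR-128 shifted by one base, both fell, by 0.36 and 0.89 in SAFB and by 0.31 and 0.72 in ERH. In ERH mir-27a was not called with total counts (-0.0065) or spike-ins (-0.017), and mir-27b was not called with spike-ins (-0.40).

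Among 22 other solitary intronic miRNAs found in the table, listed from general knowledge, 18 were tested. In SAFB 8 were called higher and 4 lower, beside 30.8% and 25.3% of all tested miRNAs, and in ERH 7 higher and 3 lower, beside 26.4% and 27.5%. Their median log2 change was 0.10 in SAFB and 0.15 in ERH, against 0.0083 and -0.061 over all tested. The highest with a mean of at least 100 counts were mir-342 and mir-590, at 3.25 and 3.23 in SAFB and 4.47 and 4.54 in ERH. The annotation did not match mir-590 to a gene, so its place on the list was not checked. Their control means were 5.08 and 4.91 CPM, so they lay far below the 6 in abundance. The lowest were mir-32 (-0.38) and mir-126a (-0.31) in SAFB, and mir-126a (-0.45) and mir-326 (-0.43) in ERH. By the annotation mir-126a is solitary but was not classed as intronic. In ERH mir-326 was not called with total counts (-0.12) or spike-ins (-0.15), and mir-126a moved to -0.14 with total counts and was not called with spike-ins (-0.18). Changes of the size of mir-15a, mir-15b or mir-425 in the lower direction were not among them. Over all tested miRNAs averaging at least 100 counts, with every copy solitary and intronic by annotation and with the 6 left out, 1 of 33 had a log2 fold change below -1 in SAFB and 0 of 33 in ERH. Of the 61 with another miRNA gene within 10 kb, 13 had one below -1 in SAFB and 11 in ERH. By the same strict rule mmu-mir-26a, through the neighbour and the exon base of Mir26a-2, and mmu-mir-140, through its retained-intron exon, would not have been classed as solitary and intronic. Without the limit on counts these were 6 of 77 and 14 of 80 in SAFB, and 1 of 77 and 13 of 80 in ERH. Of the 33, 9 were called lower and 10 higher in each knockout. Of the 61, 32 were called lower and 12 higher in SAFB, and 39 and 11 in ERH. Beside these, 55 of all 153 miRNAs with such counts were called lower and 47 higher in SAFB, and 64 and 41 in ERH. No test of a difference between the classes was made. Of the 71 averaging at least 100 counts that were solitary by annotation, intronic or not, 4 were below -1 in SAFB and 0 in ERH, with the 6 left out. None of the 6 intronic miRNAs was below -1 in either knockout. Most miRNAs of every class were above -1, so this does not set the 6 apart from any of them.

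For each of the 6, the miRNAs whose pattern over the 18 libraries was nearest were found by the root mean square difference of centred log2 CPM, among 147 others averaging at least 100 counts. mmu-mir-103 was nearest to mir-361 (0.063) and mir-30d (0.085), against a median of 0.31 over all 147. mmu-mir-140 was nearest to these same 2 (0.10 and 0.12). mmu-mir-26a was nearest to mir-185 (0.096) and mir-340 (0.13), and these 2 are solitary and intronic by annotation, as are mir-361 and mir-186, a class that holds 33 of the 147. mmu-mir-26b was nearest to mir-503 (0.073) and let-7a (0.075), and mmu-mir-107 to let-7a (0.085) and mir-29a (0.094). mmu-mir-128 had the most distant neighbours, mir-1191a (0.13) and mir-186 (0.14). By annotation mir-30d, mir-503, let-7a and mir-29a have another miRNA gene within 10 kb, and mir-1191a was not matched. These are descriptions of likeness over libraries that share batches and scaling.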

How the data were processed

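The table the authors deposited holds read counts as whole numbers without normalization, for 1006 miRNA precursor entries and 4 spike-ins. Spike-ins were added to the RNA in a defined amount and libraries made with the QIAseq miRNA kit, per the labels' protocols. SAMtools is named in the submitters' processing notes. The aligner, build, miRNA annotation, treatment of reads that fit several entries and collapsing of molecular identifiers are not given in the sources used here, so depth speaks to counting error only. Counts were tested with edgeR 4.0.16 (limma 3.58.1, R 4.3.3), 1 mean per genotype over 18 libraries, spike-ins left out, filterByExpr by population with its minimum count of 10. The standard error is the log2 fold change divided by the square root of F. CPM values used TMM. Paralog ratios were tested by exact two-sided permutation of libraries. Pairs of libraries of 1 population differed beyond sampling noise (chi-square per degree of freedom 27.5 to 157.1), so none was counted as a duplicate.

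The fitting code was checked on simulated counts. Hairpins were folded with RNAfold 2.7.2. All 9 member hairpins were found in the RefSeq table, and positions and neighbours (within 10 kb, same strand) came from GENCODE M21. The 6 miRNAs and all lists were chosen with earlier results of these data known. All 6 were named. Listed miRNAs were named where their mean was at least 100 counts, and from the other solitary intronic list the 2 highest and 2 lowest. Both knockouts were compared with the same control libraries. Batch numbers in the labels pair libraries across populations, and deviations from population means correlated by 0.094 on average within batches (45 pairs) and by -0.047 between batches (90 pairs). Alternatives were other scalings, filters, DESeq2 1.42.0, a batch block, sums per population, 2-genotype fits, and leaving out each library or population.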

Additional observations from a re-analysis of the deposited data

Results flagged for a closer look

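Of 24 groups of 6 libraries, made up of the log2 CPM of each miRNA and both paralog ratios in each genotype, 1 held a library far from the others. The control library of guide 2 in batch 3 had a log2 CPM of 12.99 for mmu-mir-26b, below the other 5 control libraries, which lay between 13.15 and 13.23. Its gap to the nearest library was 0.668 of the range of the group, above the critical value of 0.625. Without this library the log2 fold change of mmu-mir-26b was -0.19 in SAFB (edgeR adjusted p = 0.0178) and -0.34 in ERH (adjusted p = 0.00012). Chance marks about 1 in 20 groups.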

How the results depend on the processing

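Each comparison was recomputed under 9 alternatives and by leaving out each library or population, which gave 150 recomputed log2 fold changes of the 6 miRNAs per comparison. Of these, 136 in SAFB, 110 in ERH and 126 in ERH against SAFB kept their sign and their side of the threshold. The replicate block (batch as paired factor) gave 155, 146 and 110 called miRNAs in SAFB, ERH and ERH against SAFB, in place of 153, 147 and 108, and changed no call of the 6. Scaling had the widest effect. With the spike-ins 0 of the 6 were called in every comparison, at standard errors of 0.22 to 0.23. Calls over all miRNAs in ERH fell to 91, with 72 higher and 19 lower. Spike-in splits of calls were 44 higher and 58 lower in SAFB (84 and 69 with TMM) and 111 higher and 1 lower in ERH against SAFB (65 and 43), where total counts gave 115 and 8. Under spike-in scaling the sign turned for mmu-mir-103 in SAFB (-0.038), mmu-mir-107 in ERH (0.13) and, in ERH against SAFB, for mmu-mir-103 (0.32), mmu-mir-107 (0.51), mmu-mir-26a (0.19), mmu-mir-26b (0.41), mmu-mir-128 (0.52) and mmu-mir-140 (0.24). Under total counts it turned for mmu-mir-107 in ERH (0.14) and, in ERH against SAFB, for mmu-mir-103 (0.047), mmu-mir-107 (0.23), mmu-mir-26b (0.13) and mmu-mir-128 (0.24). In ERH against SAFB mmu-mir-128 also turned with DESeq2's size factors (0.00043), DESeq2 (0.00040) and a mean of at least 100 counts (0.093), as did mmu-mir-107 with the last (0.088). mmu-mir-103 in ERH turned with no filter (-0.014), and mmu-mir-107 in SAFB turned without the SAFB population of guide 1 (0.094). mmu-mir-26a in ERH became a call with DESeq2's size factors (0.23), DESeq2 (0.23), total counts (0.46), a mean of at least 100 counts (0.30), sums per population (0.20) and a fit of the 2 genotypes alone (0.28). Leaving out samples also changed the number of miRNAs tested, to between 262 and 287, and the libraries were scaled anew each time. The log2 ratio of mmu-mir-103 to mmu-mir-107 lost its call in ERH without the control population of guide 1 (0.12) and in ERH against SAFB without the SAFB population of guide 1 (-0.19). The ERH against SAFB difference in the mmu-mir-26a to mmu-mir-26b ratio ran from -0.28 to -0.17 when single libraries were left out, and passed an unadjusted exact test in 2 of 12 cases. Beyond scaling and sample construction, the cause was not tested. Counting error was small at these depths, while 2 populations per genotype limit what can be said of the genotype.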
